A study of Homo sapiens with 12 samples.

Results

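The epithelial-mesenchymal transition regulators described here are 10 genes taken by name out of 19974 protein-coding genes: the transcription factors ZEB1, ZEB2, SNAI1, SNAI2, SNAI3, TWIST1 and TWIST2, and the structural genes VIM, CDH1 and CDH2. The rule that lists them uses their names and function and sets no threshold on a measured value. Histone marks at these genes were read by CUT&RUN, in which an antibody bound to chromatin directs a nuclease to release the DNA around it. The cells were MKL-1, an established line of Merkel cell carcinoma, a neuroendocrine tumour of the skin. Vehicle cultures received 1% ethanol. Treated cultures received 3 µM EPZ011989, which blocks the histone methyltransferase EZH2, in the same 1% ethanol. Both arms lasted 6 days with fresh medium on day 3, and each arm was done in 2 replicates. Antibodies against H3K27me3, H3K4me3 and control IgG were used for each arm and replicate, which gave 12 libraries. All come from 1 cell line, so the p-values below do not measure the spread between tumours. They rest on a spread between libraries that is pooled over genes.

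In an epithelial-mesenchymal transition, cells give up E-cadherin junctions and take on the adhesion proteins and intermediate filaments of motile mesenchymal cells. The ZEB, SNAI and TWIST proteins are DNA-binding factors that drive this change, in large part by binding E-box sequences and repressing CDH1, which encodes E-cadherin. CDH2 encodes N-cadherin and VIM encodes vimentin, both classic mesenchymal markers. H3K27me3 is deposited by Polycomb repressive complex 2, whose catalytic subunit is EZH2, and marks repressed genes. H3K4me3 marks gene starts that are active or poised, and starts that carry both marks are called bivalent.

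Coverage was measured per gene as the bases under a library's peaks within 2500 bp of either gene end. On GRCh38 the ZEB genes are ZEB1 at chr10:31318417-31529804 and ZEB2 at chr2:144384081-144520119. The TWIST genes are TWIST1 at chr7:19113047-19117636 and TWIST2 at chr2:238848085-238910534. The structural genes are VIM at chr10:17228241-17237593, CDH1 at chr16:68737292-68835537 and CDH2 at chr18:27932879-28177130. For most of them the largest possible value is 10002 bp, so a value of 5001 bp means that the 5001 bp around 1 gene end were covered without a gap. Strand was known for ZEB1, ZEB2, TWIST2, VIM and CDH2. For SNAI1, SNAI2, SNAI3, TWIST1 and CDH1 positions are counted from the gene ends.

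Promoter windows of 300 bp, from 250 bp before to 50 bp after the start, were matched in RefSeq (GRCh38.p14) for 5 of the 10 genes, and 3 are printed because they stand for the 3 chromatin behaviours described below. In called peaks the ZEB2 window exchanged the marks, and the TWIST2 window lost H3K27me3 and had no H3K4me3. The ZEB1 window had H3K4me3 throughout. Capitals mark CG dinucleotides in the first pair of sequences and the E-box CAGGTG, or its reverse complement CACCTG, in the last. All run 5′ to 3′ on the gene's strand.
ZEB2, minus strand, chr2:144520070-144520369: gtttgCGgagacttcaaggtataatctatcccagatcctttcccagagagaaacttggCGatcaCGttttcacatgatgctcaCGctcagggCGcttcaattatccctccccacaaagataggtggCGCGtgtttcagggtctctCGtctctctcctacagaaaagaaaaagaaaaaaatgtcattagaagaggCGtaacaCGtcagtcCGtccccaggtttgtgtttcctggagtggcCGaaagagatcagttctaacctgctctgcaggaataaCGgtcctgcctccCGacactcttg
TWIST2, plus strand, chr2:238847835-238848134: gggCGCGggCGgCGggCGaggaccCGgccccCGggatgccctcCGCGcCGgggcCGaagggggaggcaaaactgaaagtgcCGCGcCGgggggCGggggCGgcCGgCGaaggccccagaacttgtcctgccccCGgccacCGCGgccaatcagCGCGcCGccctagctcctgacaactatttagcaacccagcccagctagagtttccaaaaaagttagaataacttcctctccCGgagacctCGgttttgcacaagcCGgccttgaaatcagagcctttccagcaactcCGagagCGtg
ZEB1, plus strand, chr10:31318167-31318466: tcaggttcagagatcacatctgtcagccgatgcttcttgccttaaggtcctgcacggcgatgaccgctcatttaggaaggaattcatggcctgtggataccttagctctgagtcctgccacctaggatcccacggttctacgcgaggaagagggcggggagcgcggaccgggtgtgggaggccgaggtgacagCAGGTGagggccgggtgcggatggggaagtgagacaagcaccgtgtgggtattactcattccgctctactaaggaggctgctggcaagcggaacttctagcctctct

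In vehicle cells all 300 bp of the ZEB2 window lay under H3K27me3 in both libraries and 0 bp under H3K4me3. With EPZ011989 the same 300 bp lay under no H3K27me3 peak and were covered by H3K4me3 in full in both libraries. The TWIST2 window was also under H3K27me3 for all 300 bp in both vehicle libraries and for 0 bp in both EPZ011989 libraries, and H3K4me3 covered none of it in any library. The ZEB1 window, and that of CDH2, was covered by H3K4me3 over 300 bp in all 4 libraries. TWIST2 had 29 CG dinucleotides and ZEB2 had 14, against a median of 22 over the 13793 protein-coding promoters in the table, and 67.3% and 32.5% of those promoters had fewer. In vehicle neither window of this pair had H3K4me3, and with EPZ011989 the denser one had none. ZEB1 had 17 CG dinucleotides and CDH2 had 23, both with H3K4me3 in all 4 libraries, and VIM had 10 and no peak. A link between CG density and the marks was not tested. Letters CAGGTG or CACCTG, the E-box form bound by SNAI and ZEB proteins, occurred once in the ZEB1 window and not in the windows of ZEB2, TWIST2, VIM or CDH2. Of all promoters in the table, 19.6% held at least 1 such site on either strand. The wider E-box CANNTG, which includes both forms, was found in 64.8% of them. A match is only a description of the letters.

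Peak lists differed between arms in H3K27me3 far more than in H3K4me3. On chromosomes 1 to 22 and X the vehicle H3K27me3 lists covered 154 and 175 Mb, and the EPZ011989 lists 0.217 and 0.00720 Mb. H3K4me3 covered 41.0 and 42.0 Mb in vehicle and 46.1 and 39.0 Mb with EPZ011989, with median peak widths of 1453 and 1354 bp against 1696.5 and 1609 bp. The control IgG lists held 4 to 38 peaks, and none lay at any of the 10 genes. H3K4me3 peaks were present in all 4 libraries at all 13 Merkel cell and neuroendocrine marker genes, among them ATOH1, SOX2 and POU4F3. Among 9 fibroblast genes, 3 had such a peak in both vehicle libraries (COL1A1, COL1A2 and DCN). Read depth is unknown, so an absent peak cannot be told apart from a signal too weak to be called. A mark present in part of the cells cannot be told apart from a weaker mark in all of them.

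The 10 genes fell into 4 chromatin states in vehicle cells, and both vehicle libraries gave the same state for each. Over all genes the 2 libraries differed at 12.8%. CDH1, SNAI3, TWIST1 and ZEB2 had peaks of both marks, a state found in 24.2% of all genes. SNAI2 and TWIST2 had H3K27me3 alone, as did 11.6% of all genes. CDH2, SNAI1 and ZEB1 had H3K4me3 alone, as did 32.2%. VIM had neither, as did 19.2%, and there absent marks cannot be told apart from absent data. Whether peaks of both marks in a window lie on the same DNA molecules was not tested.

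With EPZ011989 no H3K27me3 peak was left at any of the 10 genes in either library. All 6 genes with vehicle H3K27me3 were called lower by limma, read against 60.2% of the 9601 windows tested across the genome. Their median difference was -4731 bp, beside -2234.5 bp over all windows tested. The windows tested include those with a peak in only 1 vehicle library, whereas all 6 genes had one in both, so these sets are unlike. Over all genes only 41 had any H3K27me3 peak with EPZ011989, so a vehicle peak all but fixed the direction. The treated values of the 6 genes are all 0 and add no spread of their own to the calls. The other 4 had no H3K27me3 peak in any library and were not tested. H3K4me3 was present in both arms at the same 7 genes, and none of the 7 was called changed. In both EPZ011989 libraries an H3K4me3 peak was found at 99.3% of all genes with both vehicle marks. The share was 98.8% for genes with H3K4me3 alone in vehicle. Over the genome the limma test called 0% of 13796 windows higher and 0% lower in H3K4me3, and at an unadjusted p under 0.05 it found 1160 higher and 204 lower. Both EPZ011989 values lay above both vehicle values at 3 of the 7 genes (ZEB2, TWIST1 and CDH1), against 24.4% of windows tested. At none of the 7 did both lie below, against 12.7%. A separation of 1000 bp or more was seen at ZEB2 alone among them, against 1.07% of windows. The median H3K4me3 difference was 300.5 bp over the 7 genes and 52 bp over all windows tested, and the latter was -40.5 bp after quantile normalization, -83 bp when EPZ011989 replicate 1 was left out and 190 bp when the second was.

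**Figure D1:**
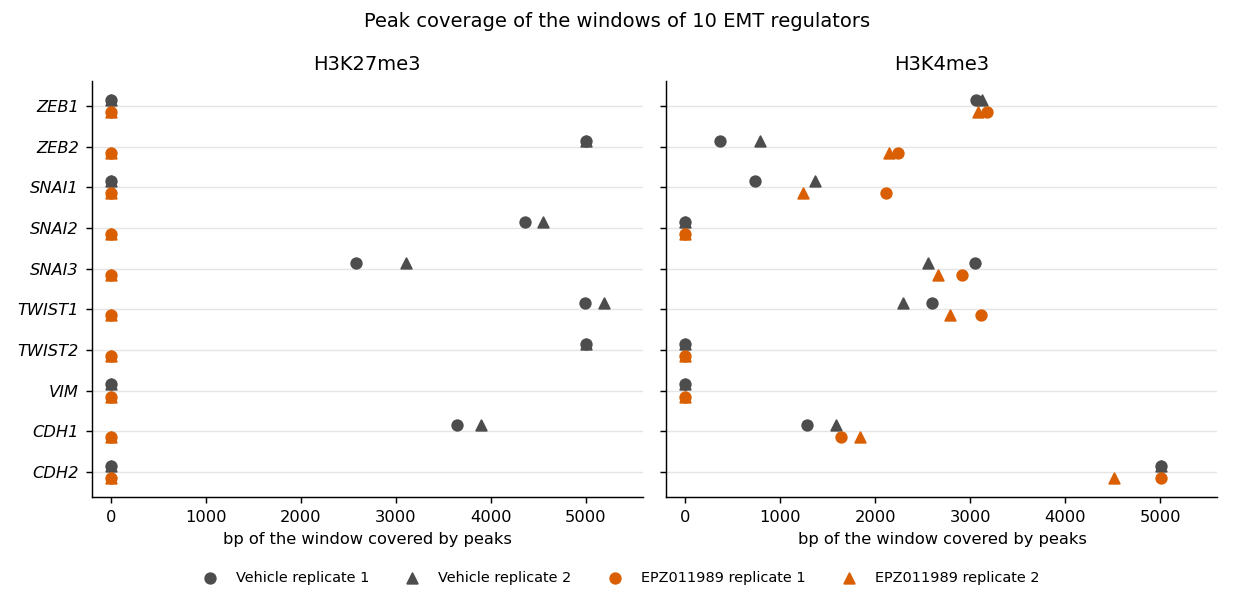
Bases covered by H3K27me3 peaks (left) and H3K4me3 peaks (right) within 2500 bp of either end of each gene, 1 point per library, vehicle in grey and EPZ011989 in orange. In H3K27me3 the 6 marked genes run from 2582 to 5196 bp in vehicle and are all at 0 with EPZ011989; in H3K4me3 the 2 groups lie apart at ZEB2, TWIST1 and CDH1.

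ZEB2 and ZEB1, zinc-finger homeobox repressors of epithelial genes, both had H3K4me3 in all 4 libraries and differed in H3K27me3. At ZEB2, H3K27me3 covered 5001 and 5001 bp in vehicle and 0 and 0 bp with EPZ011989 (difference of -5001 bp, adjusted p = 3.21e-06 by limma). The vehicle values sit at the ceiling of the window, so their equality is set by the window. Neither arm had any spread at ZEB2, so this p-value rests on the spread pooled over genes. The peak behind them was 17.3 kb wide in the first vehicle library and 16.6 kb in the second, and only 3.41% and 3.85% of the peaks in those lists were wider. It ran from -7621 to 9712 bp around the ZEB2 start in the first library and from -6421 to 10191 bp in the second, and no other protein-coding gene lay under it. The ZEB2-AS1 transcript overlaps the start, so signal over it belongs to both genes.

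H3K4me3 at ZEB2 covered 367 and 787 bp in vehicle and 2234 and 2138 bp with EPZ011989. Both treated values lay above both control values. The difference was 1609 bp (SE 207 bp, n = 2 per group, unadjusted p = 0.000433), larger than at all but 85 of the 13796 windows tested. It did not pass the limma test (adjusted p = 0.136), and its adjusted p ran from 9.0e-08 to 1.0 over the alternatives. In vehicle cells the main H3K4me3 peak at ZEB2 did not touch the start: it lay 2134 to 3782 bp inside the gene in the first library and 1714 to 3631 bp inside in the second. This inner peak was 1649 and 1918 bp wide in vehicle and 3544 and 3461 bp wide with EPZ011989, and it reached further on both sides. A second peak, of 955 bp in the first EPZ011989 library and 813 bp in the second, covered the start, where neither vehicle library had one. It reached from -255 to 699 bp in the first library and from -439 to 373 bp in the second, and it includes the promoter printed above. Over the whole gene with its flanks, H3K4me3 covered 2275 and 2923 bp in vehicle and 5287 and 4274 bp with EPZ011989.

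ZEB1 had no H3K27me3 peak in any library, and the nearest in vehicle was 246 kb away in the first and 218 kb in the second. Its H3K4me3 covered 3055 and 3122 bp in vehicle and 3169 and 3084 bp with EPZ011989, and the groups overlapped. The difference of 38 bp had an SE of 190 bp (limma adjusted p = 0.988). The peak started 554 to 668 bp before the start and was 5240, 5099, 5267 and 5436 bp wide. Between 2.16% and 3.70% of the peaks in each H3K4me3 list were wider. ZEB1-AS1, a long noncoding transcript, overlaps this start as well.

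**Figure D2:**
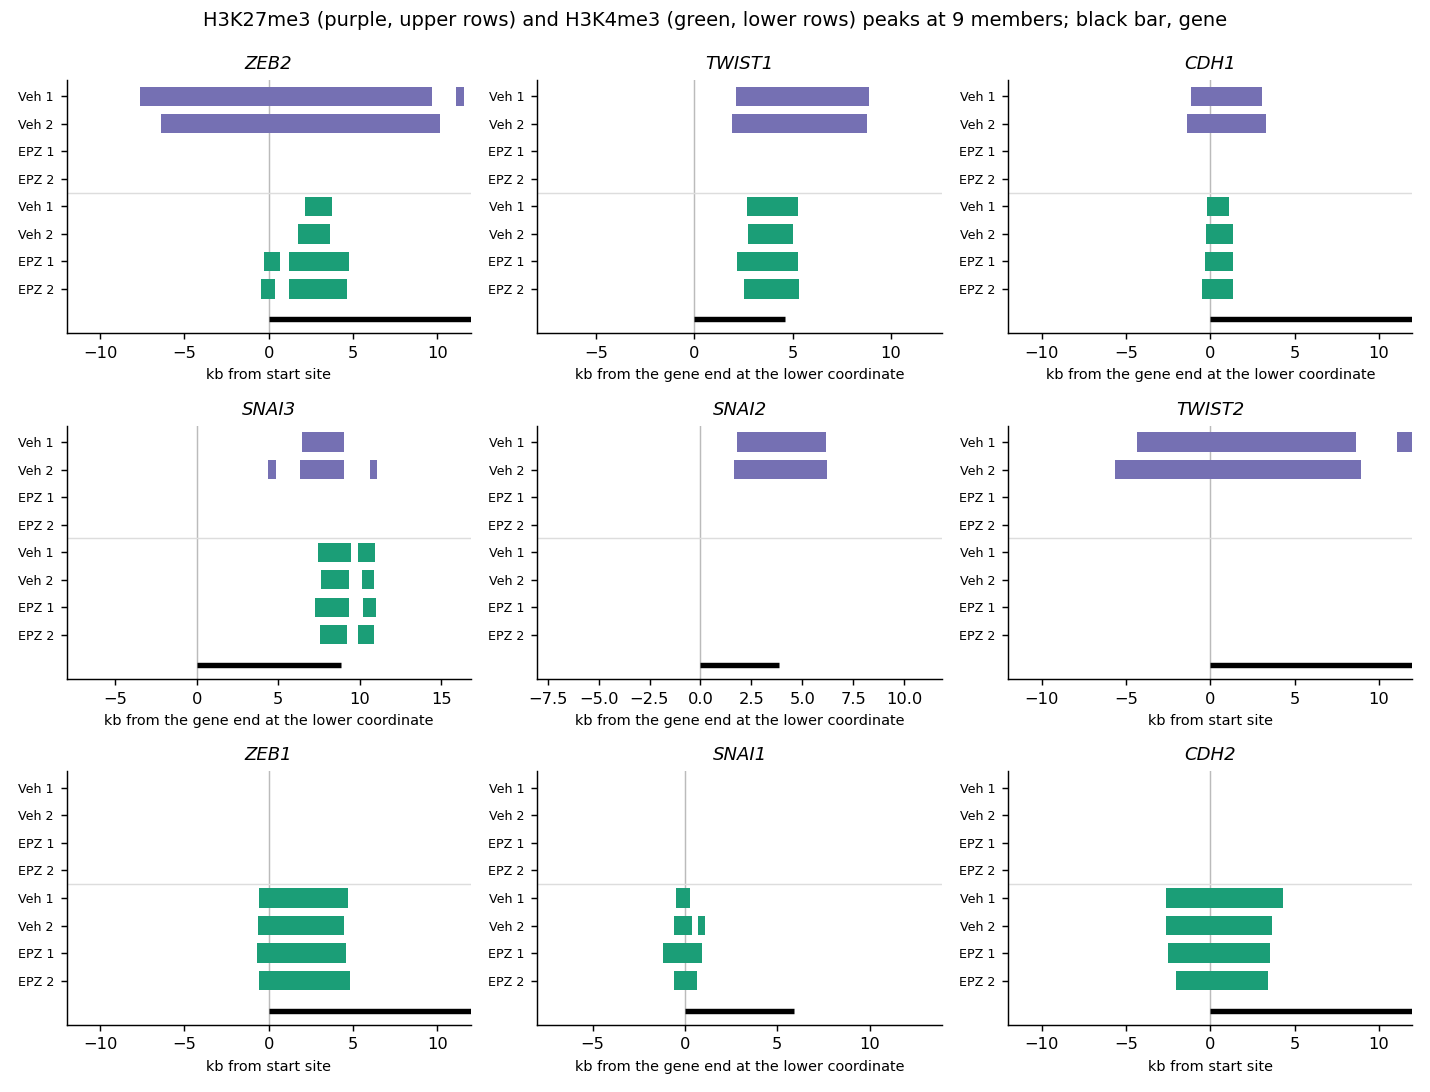
Positions of H3K27me3 peaks (purple) and H3K4me3 peaks (green) in each library at 9 genes, in kb from the start site or, where strand was not known, from the gene end at the lower coordinate; the black bar is the gene and rows are vehicle (Veh) and EPZ011989 (EPZ) replicates. No purple bar remains in the EPZ rows, and at ZEB2 a green bar over the start appears in both EPZ rows and in neither Veh row.

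The SNAI genes encode zinc-finger repressors of the Snail family, and each was in another state. SNAI1 is at chr20:49982980-49988886, SNAI2 at chr8:48917598-48921429 and SNAI3 at chr16:88677688-88686507. SNAI2, which encodes Slug, was under H3K27me3 alone: 4366 and 4556 bp in vehicle and 0 and 0 bp with EPZ011989 (difference of -4461 bp, SE 85.5 bp, limma adjusted p = 0.000295). The peak spanned the upper gene end by more than 2 kb on either side in the second library, from -2193 to 2362 bp. SNAI2 had no H3K4me3 in any library, and the nearest such peak was 335 kb away in each. Its H3K27me3 peaks were called with modest confidence, at an authors' −log10 q of 2.09 and 3.06. With stricter peaks, of a −log10 q of at least 5, none was left at SNAI2 and the call ended.

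SNAI3, another Snail family gene, carried both marks. H3K27me3 covered 2582 and 3110 bp in vehicle and 0 and 0 bp with EPZ011989 (difference of -2846 bp, SE 235 bp, limma adjusted p = 0.00635). This call was lost without EPZ011989 replicate 1 (adjusted p = 0.0721) or replicate 2 (adjusted p = 0.0725). Over the 9 alternatives in which SNAI3 was tested the adjusted p ran from 0, where a left-out vehicle library left only identical treated values to set the spread, to 0.0725. With stricter peaks SNAI3 had no H3K27me3 peak left and was not tested. SNAI3 H3K4me3 covered 3043 and 2553 bp in vehicle and 2915 and 2660 bp with EPZ011989. The treated values lay between the control values, and the difference of -10.5 bp had an SE of 255 bp (limma adjusted p = 1.0). The H3K4me3 difference at SNAI3 was thus smaller than the spread between replicates, while no H3K27me3 peak was called there with EPZ011989. SNAI3-AS1 overlaps the window over 8181 bp, and the marks cannot be assigned to 1 of these genes.

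SNAI1, which encodes Snail, was free of H3K27me3 in all libraries. The nearest vehicle peaks lay 11.1 and 9.25 kb away. SNAI1 H3K4me3 covered 731 and 1360 bp in vehicle and 2116 and 1235 bp with EPZ011989. The groups overlapped, since the second treated value fell below the second control value. The difference was 630 bp (SE 369 bp, limma adjusted p = 0.686), and with 1 library left out it ran from 189.5 bp (EPZ011989 replicate 1) through 315.5 bp (vehicle replicate 1) and 944.5 bp (vehicle replicate 2) to 1070.5 bp (EPZ011989 replicate 2). These peaks lay around the lower gene end of SNAI1, and the widest had an authors' −log10 q of 20.7.

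TWIST1 and TWIST2 encode closely related basic helix-loop-helix factors, and differed in H3K4me3. TWIST1 had 4994 and 5196 bp of H3K27me3 in vehicle and 0 and 0 bp with EPZ011989 (difference of -5095 bp, SE 90.7 bp, limma adjusted p = 0.000251). H3K4me3 at TWIST1 covered 2594 and 2295 bp in vehicle and 3113 and 2783 bp with EPZ011989. Both treated values were above both control values, and the gap between the nearest of them, 2594 and 2783 bp, was smaller than the difference between replicates in either arm. The difference of 503.5 bp had an SE of 235 bp and did not pass the test (limma adjusted p = 0.590). A single H3K4me3 peak per library made up these values, and in vehicle it lay wholly inside the H3K27me3 peak, which was 6796 and 6906 bp wide.

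TWIST2 had H3K27me3 alone, at 5001 and 5001 bp in vehicle, again the ceiling of the window. It had 0 and 0 bp with EPZ011989 (limma adjusted p = 3.21e-06, again from the spread pooled over genes). The peak over its start was 13.0 kb wide in the first vehicle library and 14.6 kb in the second. Further H3K27me3 peaks followed along the gene, so that the gene with its flanks held 36512 and 40066 bp, the most of the 10 genes. No H3K27me3 peak was called there in either EPZ011989 library. No H3K4me3 peak was found at TWIST2 in any library, and the nearest lay 416 kb away in both vehicle libraries, 415 kb away in the first EPZ011989 library and 242 kb away in the second. Among all 2314 genes with vehicle H3K27me3 alone, 7.69% had an H3K4me3 peak in both EPZ011989 libraries. SNAI2 and TWIST2 were not among them.

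The cadherins of the epithelial and mesenchymal states differed in both marks. CDH1 carried 3651 and 3902 bp of H3K27me3 in vehicle and 0 and 0 bp with EPZ011989 (difference of -3776.5 bp, SE 112 bp, limma adjusted p = 0.000753). Its H3K27me3 peaks were 4204 and 4689 bp wide and reached from -1150 to 3053 bp and from -1401 to 3287 bp around the lower gene end. CDH1 H3K4me3 covered 1277 and 1588 bp in vehicle and 1634 and 1832 bp with EPZ011989. The treated values were above the control values, 1634 against 1588 bp at the closest point, and the difference of 300.5 bp (SE 197 bp) did not pass the test (limma adjusted p = 0.741). It was 145 bp without vehicle replicate 1, 456 bp without vehicle replicate 2 and 201.5 bp without EPZ011989 replicate 2, and 144 bp after quantile normalization. The first EPZ011989 library had a further H3K4me3 peak of 388 bp inside the CDH1 gene, outside the window, that the other 3 libraries lacked.

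CDH2 had no H3K27me3 within 1173 kb in the first vehicle library or 1215 kb in the second. H3K4me3 covered 5001 and 5001 bp in vehicle and 5001 and 4511 bp with EPZ011989, so the window around the CDH2 start was at its ceiling in 3 of 4 libraries. Peak width, which has no ceiling, was 6975 and 6278 bp in vehicle and 6047 and 5421 bp with EPZ011989. Only 0.99% to 2.21% of the peaks in each list were wider, which makes it the widest H3K4me3 peak at the 10 genes in 3 of 4 libraries, with ZEB1 wider in the second EPZ011989 library. The window difference of -245 bp did not pass the test (SE 290 bp, limma adjusted p = 0.871), and without EPZ011989 replicate 2 it was 0 bp. Widths were not tested.

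H3K4me3 was next set against the vehicle state of each gene. Of the 4839 genes with both marks in vehicle, 40.5% had both EPZ011989 values above both vehicle values, with a median difference of 203.5 bp. Of the 6441 genes with H3K4me3 alone the share was 12.7% and the median -38 bp. Among the regulators it was 3 of 4 in the first class (ZEB2, TWIST1 and CDH1, not SNAI3) and 0 of 3 in the second (ZEB1, SNAI1 and CDH2). CDH2 was already at the ceiling of 5001 bp around its start in both vehicle libraries, so it could hardly count as higher. How many genes of either class sit at such a ceiling was not counted. The quartiles of the first class were -5.5 and 473 bp. CDH1, at 300.5 bp, lay between its median and its upper quartile, TWIST1, at 503.5 bp, just above the upper quartile, and ZEB2 far beyond it, while SNAI3, at -10.5 bp, lay just below the lower quartile. Separation of 1000 bp or more, as at ZEB2, was found in 2.27% of genes with both marks and in 0.124% of genes with H3K4me3 alone. H3K4me3 peaks were also wider at the median over the whole lists with EPZ011989, and the part of that in these values was not tested.

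**Figure D3:**
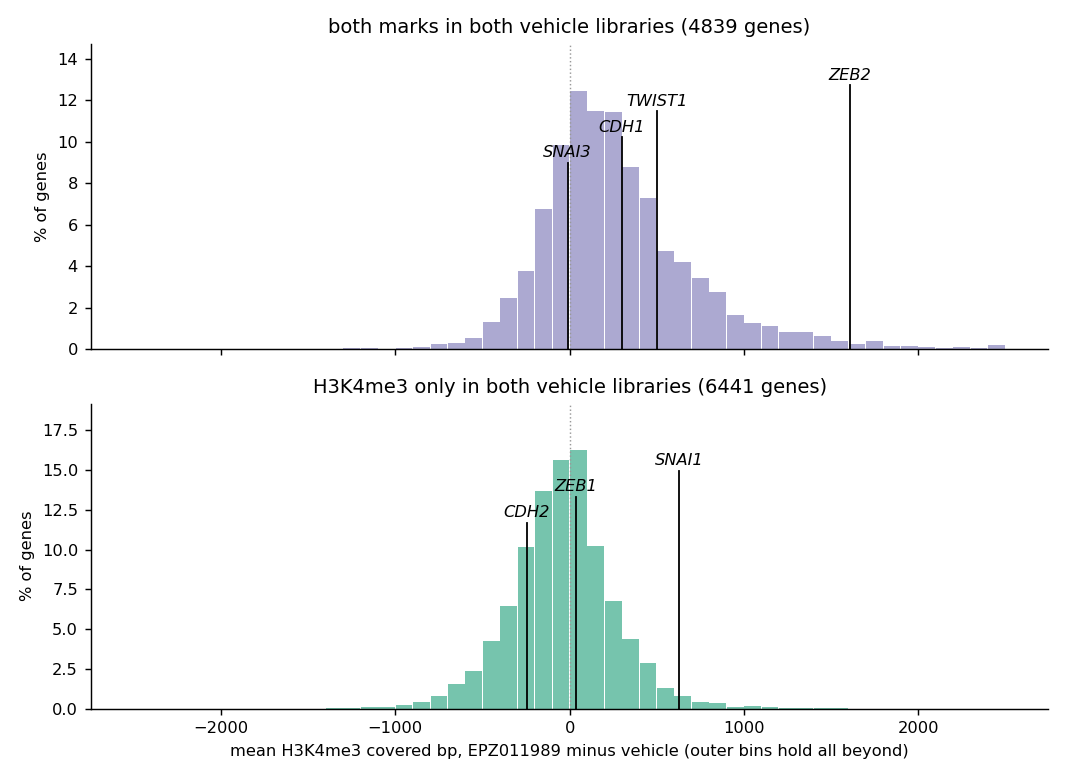
Distribution of the difference in mean H3K4me3 covered bp, EPZ011989 minus vehicle, over genes with both marks in vehicle (top) and with H3K4me3 alone (bottom), in bins of 100 bp as percent of genes, with the regulators as black lines. ZEB2, at 1609 bp, sits in the right tail of the upper panel, while SNAI3, at -10.5 bp, sits left of the median of that panel, which is 203.5 bp.

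The bases that took on H3K4me3 were then followed one by one. Those inside H3K4me3 peaks of both EPZ011989 libraries and of neither vehicle library numbered 1975 at ZEB2, 286 at SNAI1, 154 at TWIST1 and 45 at CDH1, and 0 at ZEB1, SNAI3 and CDH2. All 1975 at ZEB2, all 154 at TWIST1 and all 45 at CDH1 had lain under H3K27me3 in vehicle cells. None of the 286 at SNAI1 had. These outcomes were largely set by the vehicle state. At TWIST1 and CDH1 the vehicle H3K27me3 peak already enclosed the H3K4me3 peak with room on either side, as did the wide one at ZEB2 for its inner peak. A modest widening there could only fall inside. SNAI1 had no vehicle H3K27me3 peak nearer than 9.25 kb, so its count could only be 0. Over the genome 1.73 Mb were new in this sense, and 55.3% of them had vehicle H3K27me3, against 13.1% of the H3K4me3 shared by both vehicle libraries. Bases with the reverse pattern, present only in vehicle, came to 240 at ZEB2, in a peak farther inside the gene, and to 124 at CDH2. None of these had H3K27me3. Over the genome 1.10 Mb showed the reverse pattern, and 3.18% of it had vehicle H3K27me3. CDH2 had no vehicle H3K27me3 peak nearer than 1173 kb, so its count could only be 0. Already in vehicle, all of the H3K4me3 shared by both libraries lay within H3K27me3 at TWIST1 and CDH1, as did 73.7% at ZEB2 and 56.7% at SNAI3.

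**Figure D4:**
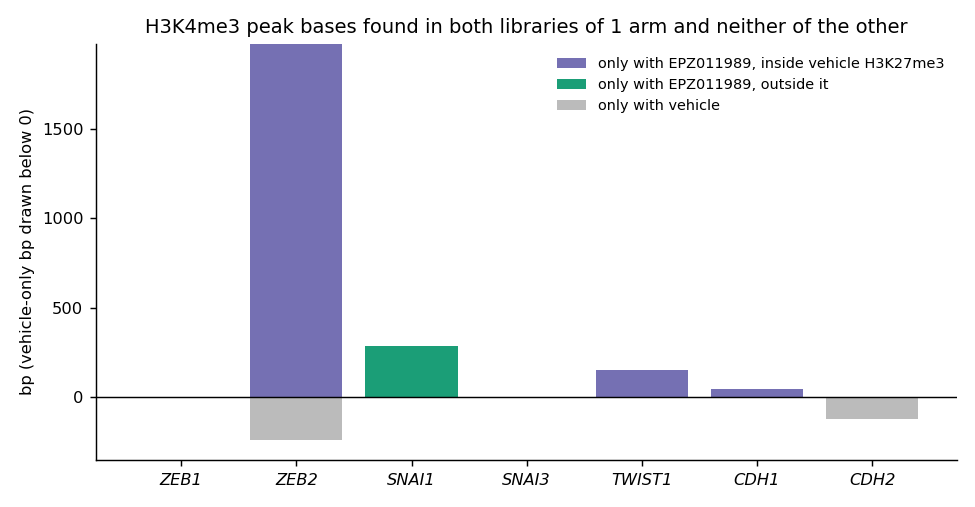
Bases in H3K4me3 peaks of both EPZ011989 libraries and neither vehicle library, split by whether they lay under vehicle H3K27me3, and, drawn below 0, bases found only in both vehicle libraries, for the 7 genes with H3K4me3. ZEB2 holds 1975 new bases, all under vehicle H3K27me3, and SNAI1 holds 286, none of them under it.

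VIM alone among the 10 genes had no peak of either mark in any library. It lies in a stretch at chr10:15444373-17326067 of 1.88 Mb in which none of the 12 lists has a peak. The stretch holds 8 protein-coding genes whole: VIM and its neighbours ITGA8, MINDY3, PTER, C1QL3, RSU1, CUBN and TRDMT1. Of 74812 stretches between peaks on these chromosomes, 71 were longer and 29 held more genes. An absent mark at VIM cannot be told apart from an absence of data over the whole stretch.

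The miR-200 microRNAs repress ZEB1 and ZEB2 messages, and ZEB proteins in turn repress the miR-200 loci. The 5 mature strands are printed because both seed groups, in capitals at bases 2 to 8, occur in each of the 2 clusters, so the clusters differ in chromatin and not in the seeds they encode. Sequences are from RefSeq. The first 3 come from the cluster on chromosome 1 and the last 2 from that on chromosome 12.
hsa-miR-200b-3p: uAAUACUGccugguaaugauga
hsa-miR-429: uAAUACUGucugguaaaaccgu
hsa-miR-200a-3p: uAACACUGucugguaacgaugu
hsa-miR-200c-3p: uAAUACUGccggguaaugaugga
hsa-miR-141-3p: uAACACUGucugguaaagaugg

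Seed AAUACUG is shared by miR-200b, miR-429 and miR-200c, and AACACUG by miR-200a and miR-141. All 3 hairpins on chromosome 1 (MIR200B, MIR200A and MIR429) lay inside 1 H3K27me3 peak in each vehicle library. This peak was 50.5 kb wide in the first and 52.3 kb in the second, and it overlaps the coding genes TTLL10 and TNFRSF18. The hairpin windows of 2500 bp to each side were covered in full in both vehicle libraries and not at all in either EPZ011989 library. H3K4me3 was absent from these windows in all 4 libraries. On chromosome 12 the MIR200C window held 4248 and 4343 bp of H3K4me3 in vehicle and 4190 and 3304 bp with EPZ011989, in 1 peak per library that covers MIR141 too and in 3 of 4 libraries touches the coding gene PHB2. Its H3K27me3 was a single peak of 247 bp in the first vehicle library. The microRNA windows were outside the test over coding genes.

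The other genes of the pathway were described from lists. Over all windows tested, 60.2% were called lower in H3K27me3, and in H3K4me3 both EPZ011989 values lay above both vehicle values at 24.4% and below at 12.7%. Of 16 other transcription factors of the transition, 11 were tested in H3K27me3 and 10 were called lower, with a median of -6591 bp, while the 12 tested in H3K4me3 had a median of 185.5 bp. The largest drops in mean coverage were at OVOL1 (-10002 bp), FOXC2 (-7900 bp), SOX9 (-7893 bp) and GSC (-6891 bp). OVOL1 is itself a guardian of the epithelial state, and FOXC2, SOX9 and GSC are developmental factors. GSC had no H3K4me3 in vehicle and 691 and 520 bp with EPZ011989, the only gain of a peak in both libraries in these lists.

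Of 25 epithelial junction and splicing genes, 16 were tested in H3K27me3 and 13 were called lower, against 60.2% of all windows tested. The largest drops were at the protease gene ST14 (-8991.5 bp), the polarity gene CRB3 (-8027 bp), the claudin gene CLDN7 (-6855 bp) and the protease inhibitor gene SPINT1 (-5108 bp). ST14 had no H3K4me3 peak in any library. Both EPZ011989 values of H3K4me3 lay above both vehicle values at 7 of the 23 tested and below at 1, against 24.4% and 12.7% of all windows tested. In vehicle 12 of the 25 genes had both marks, against 24.2% of all genes. The medians of this list were -3922.25 bp in H3K27me3 and 10.5 bp in H3K4me3. DSP, which encodes the desmosome protein desmoplakin and was picked out after its values were seen, was the 1 gene of the list apart by 1000 bp or more, at 1147 and 1206 bp in vehicle and 2580 and 2516 bp with EPZ011989 (limma adjusted p = 0.129).

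Mesenchymal and matrix genes numbered 25, of which 18 were tested in H3K27me3 and 15 called lower, against 60.2% of all windows tested. AXL, a receptor kinase, went from full coverage of 10002 bp in both vehicle libraries to 0 bp. COL1A1, a collagen gene, was also at 10002 bp in both vehicle libraries but kept 2132 bp in the first EPZ011989 library (adjusted p = 0.0238). NES, the intermediate filament gene nestin, differed by -7542 bp. H3K4me3 groups were apart and higher at 9 of 13 genes tested and lower at 1, against 24.4% and 12.7% of all windows tested. In vehicle 12 of the 25 genes had both marks, against 24.2% of all genes. Of all genes in that state, 40.5% were apart and higher. Medians were -5001 bp in H3K27me3 and 297.5 bp in H3K4me3. TNC, a matrix protein gene named after its values were seen, was the 1 apart by 1000 bp or more, at 1438 and 1408 bp in vehicle and 2979 and 2713 bp with EPZ011989 (limma adjusted p = 0.15).

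Of 19 upstream signals and receptors, 16 were tested in H3K27me3 and 13 were called lower, against 60.2% of all windows tested. TGFB1, the cytokine best known as an inducer of the transition, differed by -10002 bp, BMP4 by -9445 bp, and the receptor genes EGFR and MET by -5001 bp each. H3K4me3 groups were apart and higher at 13 of 18 genes tested and lower at 2, against 24.4% and 12.7% of all windows tested. In vehicle 12 of the 19 genes had both marks, against 24.2% of all genes. Of all genes in that state, 40.5% were apart and higher. The medians of this list were -4695.25 bp in H3K27me3 and 290.5 bp in H3K4me3. TGFB1 was the 1 gene of the list apart by 1000 bp or more, with 490 and 1467 bp in vehicle and 3015 and 3686 bp with EPZ011989 (limma adjusted p = 0.183). None of the genes of these 4 lists was called changed in H3K4me3.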

How the data were processed

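Peak lists of 12 CUT&RUN libraries, 2 for each of 6 combinations of treatment and antibody, were used as deposited on hg38. MACS2 2.1.1.20160309, SAMtools 0.1.19, FastQC and Bowtie2 2.2.9 are listed in the submitters' processing notes; thresholds, control library, duplicates and use of the spike-in are not given in the sources used here. The authors deposited H3K27me3 as broad peaks, and the lists of H3K4me3 and IgG as narrow ones. Per the deposited lists each peak carries a fold, a ratio of pileup to background, and a score; neither was used. The authors' −log10 p was not used either, and their −log10 q served only to describe peaks and for a stricter list with a minimum of 5.

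Gene positions came from RefSeq (GRCh38.p14), with strand for 15813 genes. The arms were compared in covered bp by limma 3.58.1 (R 4.3.3, with trend and robust settings), each mark apart, over windows with a peak in at least 1 of 4 libraries, with Benjamini-Hochberg adjustment over all windows tested and a threshold of 0.05. No scaling between libraries was made, because lists give no depth. Overlaps were counted in Python 3.11.15 with pandas 2.3.3 and numpy 2.4.6. A run of the test on simulated windows set only a small part of the H3K27me3 windows to 0 with treatment, whereas in the data nearly all were. It therefore does not show how the H3K27me3 test behaves here. The 10 genes, all of which are named, and the lists were chosen with earlier results of these data known, and the lists name up to 4 genes by the size of the H3K27me3 difference among called genes. Alternatives were other windows (1000 and 5000 bp, the start only, the whole gene), quantile normalization, no filter, stricter peaks, a replicate block and each library left out; the whole-gene window was chosen after seeing the data. Some genes of the lists are not reported here by name.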

Additional observations from a re-analysis of the deposited data

How the results depend on the processing

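The 6 H3K27me3 calls at the regulators were all kept under 1000 and 5000 bp windows, quantile normalization and the whole-gene window. They were also kept without either vehicle library. There the spread rests on treated values, all 0 at these genes, so those calls were fixed in advance and carry no weight. Quantile normalization shrank their differences, at ZEB2 from -5001 to -1374.5 bp, at CDH1 from -3776.5 to -766 bp and at SNAI3 from -2846 to -292 bp. The calls were 2 with the start site only, where 4 of the marked genes have no known strand, 4 with stricter peaks, where SNAI2 and SNAI3 had no peak left, and 5 without EPZ011989 replicate 1 or 2, where SNAI3 was lost. Over the genome the count of windows lower in H3K27me3, 5784, became 3716 with the start site only, 3598 with quantile normalization (beside 3301 higher, since that scaling forces the lists to one distribution) and 3301 with stricter peaks, and ranged from 3210 (without EPZ011989 replicate 2) to 8885 (without vehicle replicate 1) with 1 library left out, with 3211 without EPZ011989 replicate 1; without a vehicle library the spread rests on treated values that are nearly all 0. Without a filter the H3K27me3 model could not be fitted. In H3K4me3 the count over the genome, 0, became 6 with 1000 bp windows, 35 with 5000 bp, 523 with no filter, 96 with quantile normalization and 4 with whole genes, and was 0 to 0 with 1 library left out. ZEB2 was the 1 regulator called under no filter and under quantile normalization (1411 bp, adjusted p = 0.0371, in a range of 9.0e-08 to 1.0), and none was called otherwise. Differences of ZEB1 and SNAI3, both near 0, turned sign: ZEB1 to -9.44 bp with quantile normalization and -4.50 bp without EPZ011989 replicate 1, SNAI3 to 234.5 bp without vehicle replicate 1 and 117 bp without EPZ011989 replicate 2. With 1 library left out they ranged from -4.50 to 80.5 bp and from -255.5 to 234.5 bp. The correlation of same-numbered deviations was -0.0296 in H3K4me3, where no pairing by replicate number was seen, and 0.0162 in H3K27me3. In H3K27me3 nearly all treated values are 0, so that correlation cannot show whether replicate numbers pair the samples. A replicate block gave 4555 windows lower in H3K27me3, 6 of them at regulators, and 0 changed in H3K4me3. Depth is unknown, windows have a ceiling, and with 2 libraries per group single calls rest on a spread pooled over genes.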
